A study of Mus musculus with 8 samples.

Results

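Expression of 36 genes of DNA replication and mitosis was followed in mouse liver with and without hepatocyte deletion of Arid1a, which encodes a subunit of a SWI/SNF complex that remodels chromatin. The genes were chosen by symbol from a written list, and all 36 were found among the 35638 genes of the deposited expression table. They fall into 16 replication genes, 4 G1/S control genes (cyclins and a transcription factor that act at the start of DNA synthesis) and 16 mitotic genes. Frozen liver from 8 samples taken at postnatal day 90 was profiled by RNA sequencing of total RNA. All samples came from a mixed C57/B6 and 129 background and carried floxed Arid1a on both alleles (Arid1a Fl/Fl), so the controls have the floxed alleles too. The 4 control samples (WT) had the floxed alleles alone, and the 4 deleted samples (KO) also carried Alb-cre. Alb-cre expresses Cre recombinase from the albumin promoter, which is active in hepatocytes, so other liver cells keep the gene. The labels do not say whether the samples of a group are separate animals, so the p-values measure sample-to-sample spread, part or all of which may be technical.

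In the first phase of replication, helicase loading, the proteins Cdc6 and Cdt1 place the ring of Mcm2 to Mcm7 on DNA, and Mcm10 and the GINS complex help turn that ring into a running helicase. The clamp Pcna tethers polymerases, and Rrm1, Rrm2, Tyms and Tk1 supply deoxynucleotides. Replication genes are typically switched on by E2F factors late in G1, whereas mitotic genes follow later in the cycle under B-Myb, MuvB and Foxm1, which act through a promoter element named CHR (cell cycle genes homology region). Most hepatocytes of an adult mouse are quiescent, and both programs are low until the liver is injured or partly removed.

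The elements of both programs can be looked for in the promoter sequences, and 4 promoters are shown because they hold several matches and belong to genes that the results turn on. RefSeq promoter windows of GRCm38.p6, reaching from 250 bases before to 50 bases after the transcription start, were matched for 27 of the 36 genes. The sequences run 5′ to 3′ on the strand of the gene, and capitals mark a match on either strand to an E2F site, a CHR element or a CCAAT box. Mcm3 and Mcm6 encode subunits of the replicative helicase. Mki67 encodes the proliferation marker Ki-67, and Top2a encodes the topoisomerase that disentangles chromosomes in mitosis. The windows lie on the minus strand at chr1:20820263-20820562 for Mcm3, chr1:128359656-128359955 for Mcm6, chr7:135716330-135716629 for Mki67 and chr11:99024140-99024439 for Top2a.
Mcm3: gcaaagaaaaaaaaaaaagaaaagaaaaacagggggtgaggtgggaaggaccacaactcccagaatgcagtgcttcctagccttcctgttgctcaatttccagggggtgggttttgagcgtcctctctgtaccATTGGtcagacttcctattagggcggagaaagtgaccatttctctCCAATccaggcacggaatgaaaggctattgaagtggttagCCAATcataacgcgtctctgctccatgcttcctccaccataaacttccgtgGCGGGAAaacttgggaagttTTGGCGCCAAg
Mcm6: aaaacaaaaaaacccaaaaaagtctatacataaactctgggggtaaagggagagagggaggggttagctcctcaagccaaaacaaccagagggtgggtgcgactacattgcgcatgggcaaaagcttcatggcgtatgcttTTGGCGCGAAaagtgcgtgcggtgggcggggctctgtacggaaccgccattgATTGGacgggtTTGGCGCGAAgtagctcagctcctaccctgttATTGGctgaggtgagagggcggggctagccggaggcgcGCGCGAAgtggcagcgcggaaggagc
Mki67: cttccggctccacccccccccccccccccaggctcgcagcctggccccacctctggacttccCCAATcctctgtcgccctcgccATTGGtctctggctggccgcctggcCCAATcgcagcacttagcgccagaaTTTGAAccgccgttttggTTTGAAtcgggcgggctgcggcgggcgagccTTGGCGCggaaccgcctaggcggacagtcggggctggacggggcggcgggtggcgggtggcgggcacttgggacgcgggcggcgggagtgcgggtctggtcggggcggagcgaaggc
Top2a: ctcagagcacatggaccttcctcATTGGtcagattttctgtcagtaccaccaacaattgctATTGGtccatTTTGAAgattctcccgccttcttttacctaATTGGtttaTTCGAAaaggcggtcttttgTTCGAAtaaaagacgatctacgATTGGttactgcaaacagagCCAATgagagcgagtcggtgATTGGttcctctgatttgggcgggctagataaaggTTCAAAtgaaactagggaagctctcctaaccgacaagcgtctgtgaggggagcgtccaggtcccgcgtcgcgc

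The E2F site was searched in 4 spellings (TTCCCGC and then TTGGCGC and then TTCGCGC and then TTGCCGC), the CHR element in 2 spellings (TTTGAA and then TTCGAA) and the CCAAT box as CCAAT, all on both strands. TTCGAA reads the same on both strands, and an E2F site read as GCGCCAA can overlap a CCAAT box. The Mcm6 window held 5 E2F matches and no CHR match, and the Mcm3 window held 3 E2F matches and no CHR match. In contrast, the Top2a window held 4 CHR and 6 CCAAT matches and no E2F match, and the Mki67 window held 2 CHR matches, 3 CCAAT matches and 1 E2F match. Among replication genes 8 of 13 with a window had an E2F match (61.5%), against 3 of 12 mitotic genes (25%) and 10.9% of all 27025 genes with a window. The CHR element was matched in 10 of 12 mitotic genes (83.3%), in 2 of 13 replication genes (15.4%) and in 21.7% of all genes. A CCAAT box was matched in 11 of 12 mitotic and 9 of 13 replication genes (91.7% and 69.2%), against 41.1% of all genes. A gene with several windows was counted once, and over the 32851 single windows the shares were 9.57%, 19.2% and 37.4% for the E2F site, the CHR element and the CCAAT box. The Ccne1 window held none of the 3 motifs. For Cdc6, E2f1, Mcm5 and Mcm7 no window held the start of the gene in the GENCODE annotation. The E2f1 window, with no match, was set from a RefSeq start 466 bases inside the gene as annotated there, so it does not cover the promoter at that start. Likewise, the RefSeq starts lay 350 bases inside the gene for Cdc6 and 539 and 1156 bases inside for Mcm7. Cdc6, Mcm5 and Mcm7 are all among the 8 replication genes counted with an E2F match. These matches describe letters in a window and are not evidence of binding.

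**Figure D1:**
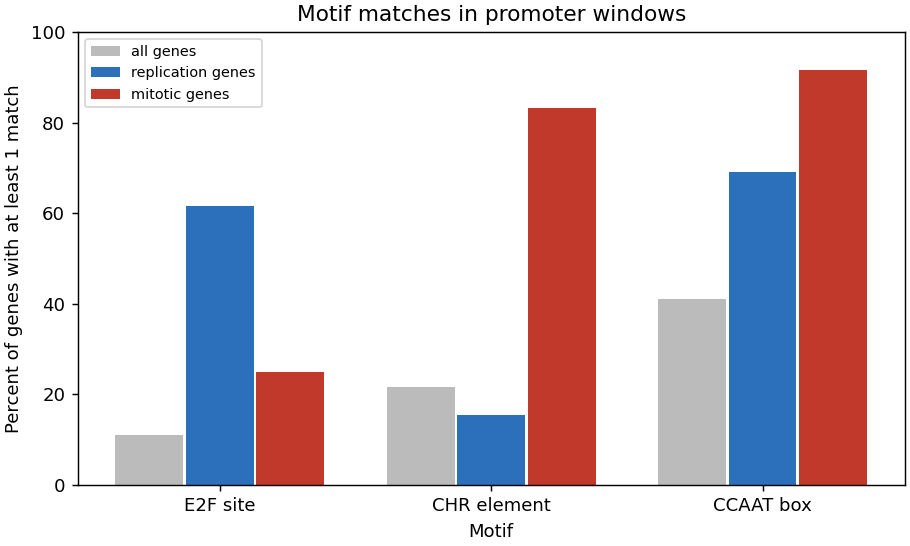
Percent of genes with at least 1 match to an E2F site, a CHR element or a CCAAT box in a promoter window, for all 27025 genes with a window (grey), 13 replication genes (blue) and 12 mitotic genes (red). E2F matches were at 61.5% in replication genes and CHR matches at 83.3% in mitotic genes, above the 10.9% and 21.7% of all genes. The 61.5% includes Cdc6, Mcm5 and Mcm7, whose windows did not hold the start in the GENCODE annotation.

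Values were deposited as FPKM, fragment numbers divided by transcript length and by library size, so levels of different genes can be set side by side. Sequencing depth, estimated from the steps between low values, was about 12500000 to 15200000 reads a library. Arid1a itself, measured over the whole gene rather than its deleted part, was at 5.16, 8.38, 3.998 and 4.11 FPKM in WT libraries 1 to 4 and at 2.70, 2.86, 3.46 and 2.59 FPKM in KO libraries 1 to 4. Every KO library was below every WT library, but the difference of -0.67 ± 0.22 (log2 change of FPKM + 1 ± SE, n = 4 against 4) did not pass the test (adjusted p = 0.354, limma). The deposited values do not isolate the deleted exons, so they give only a partial check of the labels. Hepatocyte markers were abundant in every library, with 8 markers summing to 30600 to 43300 FPKM in WT and 34100 to 50200 FPKM in KO. The depth limits the low genes most. The mitotic genes stood on an estimated 0 to 46 reads each in the WT libraries (median 4.5), and 9 of the 16 had at most 10 reads in every WT library. The replication genes stood on 0 to 1657 reads in WT, with a median of 52.5.

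Most replication and mitotic genes had higher mean levels in KO liver, but none passed the test at an adjusted p of 0.05. On log2(FPKM + 1), 13 of 16 replication genes, 4 of 4 G1/S control genes and 16 of 16 mitotic genes had a positive difference, KO minus WT, against 51.5% of the 27571 genes tested (Ccnd1 turned negative when libraries were scaled to equal sums). The median difference was 0.25 for replication genes, 0.28 for G1/S control genes and 0.25 for mitotic genes, against 0.0016 for all genes tested. With a pseudocount of 0.1 FPKM in place of 1 FPKM, the median was 0.54 for replication genes and 0.894 for mitotic genes, against 0.013 for all genes. How replication and mitotic genes compare in size of difference thus depended on the scale. By limma with Benjamini-Hochberg adjustment over all genes tested, 0 of 36 genes were higher and 0 of 36 lower, where 0.116% of all genes were called higher and 0.0943% lower. At an unadjusted p under 0.05, 4 of 36 genes were higher (Mcm2, Mcm3, Pcna and E2f1, none of them mitotic) and 0 were lower, where 6.02% of all genes were higher and 3.71% lower. The absence of mitotic genes depended on the setting. By limma, 4 of 16 mitotic genes were under 0.05 unadjusted with a pseudocount of 0.1 FPKM, 4 without KO 1 and 0 with a pseudocount of 5 FPKM. Replication genes numbered 3, 1 and 2 in these settings. The share of all genes in these settings is not given here. In a comparison of single libraries, 5 of 36 genes had every KO library above every WT library (Gins1, E2f1, Foxm1, Top2a and Mki67), against 3.57% of all genes. None of the 36 had every KO library below every WT library, which 2.43% of all genes had.

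**Figure D2:**
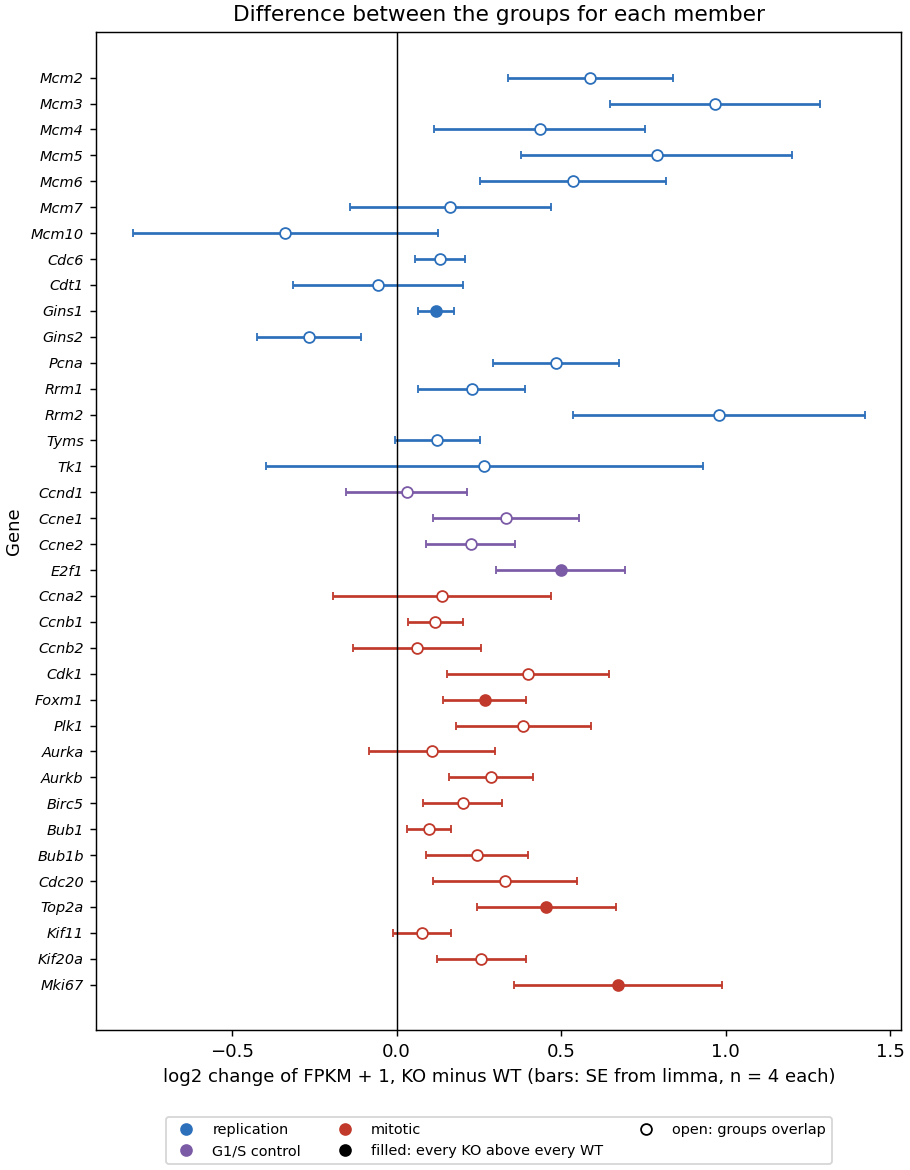
Difference between the groups for each of the 36 genes, as the log2 change of FPKM + 1, KO minus WT (x axis), with bars for the SE from limma (n = 4 each). Filled points are genes with every KO library above every WT library, and 33 of the 36 points lie above 0 (Mcm10, Cdt1 and Gins2 lie below, and Ccnd1 crosses 0 with equal sums).

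The second feature of these genes was their uneven spread over the KO libraries. KO 1 was the highest of the 8 libraries for 26 of the 36 genes and for 15 of the 16 mitotic genes, whereas it was the highest for 13.8% of all genes tested and for 11.7% of genes with a mean of 0.1 to 10 FPKM. KO 1 lay above every WT library in 16 of 16 mitotic genes, 12 of 16 replication genes and 4 of 4 G1/S control genes, against 22.2% of all genes. KO 2 did so in 7 mitotic and 5 replication genes, against 16.5% of all genes. KO 3 did so in 8 mitotic and 8 replication genes, against 22.1% of all genes. KO 4 did so in 6 mitotic and 4 replication genes, against 25.3% of all genes. Without KO 1, the median difference of the mitotic genes was 0.106 with 13 of 16 positive, and that of the replication genes was 0.19. Of single mitotic genes, 12 had a difference smaller by over 1.5 times without KO 1 and 3 turned negative, which left Cdk1 as the exception. What sets KO 1 apart was not tested.

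**Figure D3:**
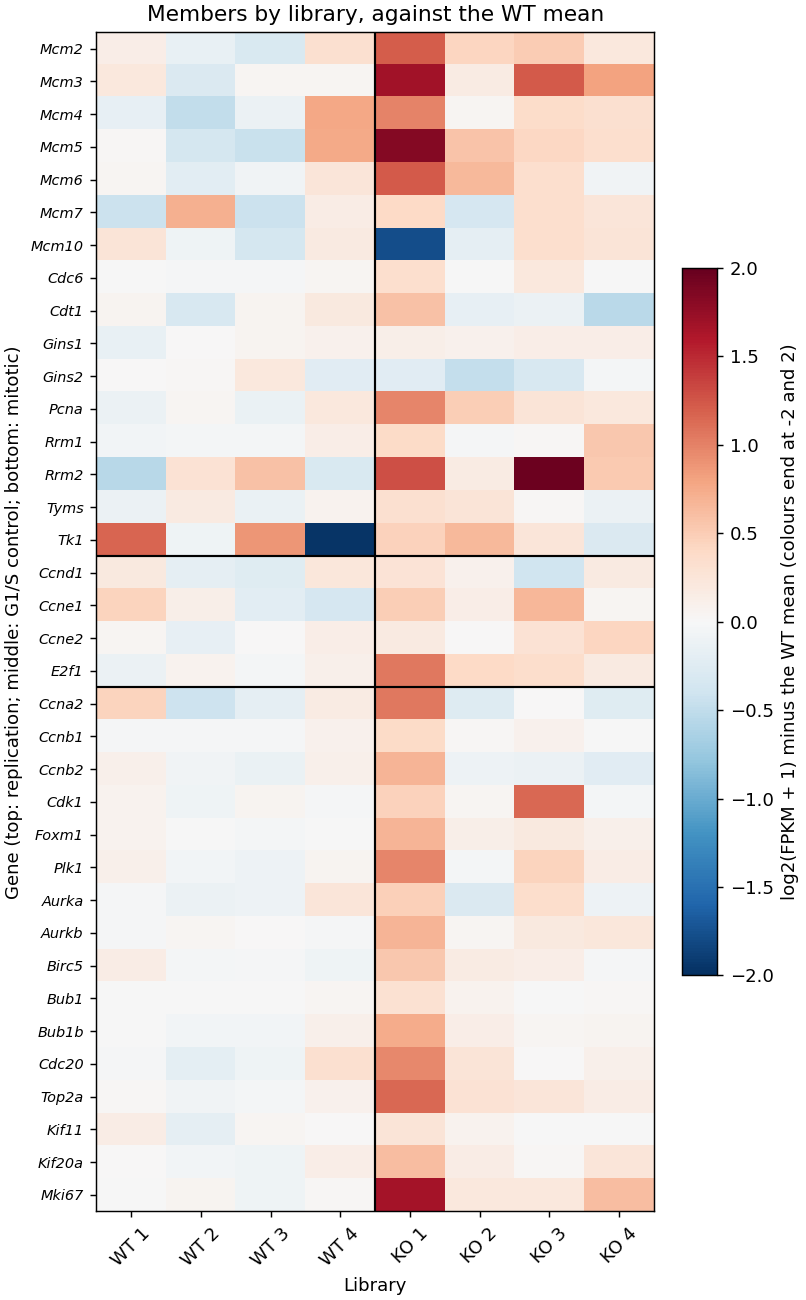
Each of the 36 genes (rows) in each library (columns), coloured by log2(FPKM + 1) minus the WT mean of the gene, with red above and blue below it. KO 1 is red in all 16 mitotic genes, and in the same column Mcm10 is the deepest blue.

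Of the helicase subunits, Mcm3 had the largest log2 change; Mcm5 had a larger one with a pseudocount of 0.1 FPKM (1.61 against 1.43), without WT 4 (1.04 against 0.982) and without KO 3 (0.915 against 0.881). Mcm3 was at 1.29, 0.618, 1.05 and 1.04 FPKM in WT libraries 1 to 4 and at 5.32, 1.22, 3.65 and 2.48 FPKM in KO libraries 1 to 4. KO 1, KO 3 and KO 4 lay above every WT library, and KO 2 lay within the WT range. The WT mean was 0.9995 ± 0.279 FPKM and the KO mean 3.17 ± 1.75 FPKM (SD, n = 4), a ratio of 3.17, and the log2 change of FPKM + 1 was 0.97 ± 0.32 (SE; adjusted p = 0.369, limma). Mcm3 lies at chromosome 1, 20802968 to 20820312 (GRCm38). Without KO 2 its adjusted p was 0.0909 (limma), the lowest of any replication gene under any setting tried, where the values for Mcm3 ran from 0.0909 to 0.578.

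The other subunits of the ring had positive differences too. Mcm2 was at 0.575, 0.305, 0.169 and 0.799 FPKM in WT and at 2.34, 0.932, 1.06 and 0.663 FPKM in KO, so that only KO 4 lay inside the WT range (log2 change 0.59 ± 0.25 SE, adjusted p = 0.510, limma). Mcm5 was at 0.593, 0.225, 0.149 and 1.64 FPKM in WT and at 4.54, 1.33, 1.08 and 0.976 FPKM in KO. Here WT 4 exceeded 3 of the KO libraries, and the ratio of means, 3.04, came to 1.73 without KO 1 and 6.15 without WT 4. Mcm6 was at 0.470 to 1.03 FPKM in WT against 0.620 to 2.996 FPKM in KO, Mcm4 at 0.474 to 2.56 and 1.14 to 3.13 FPKM, and Mcm7 at 1.14 to 3.76 and 1.30 to 2.83 FPKM. The Mcm7 row is uncertain, because its exons share 7.25% of their bases with Ap4m1 on the opposite strand and the use of strand in counting is not given in the sources used here.

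The ring holds its 6 subunits in equal number, and the spread of their transcripts within a library was compared. The 6 values spanned a ratio of 2.24 to 16.7 between the highest and the lowest subunit in the WT libraries and of 1.81 to 4.0 in the KO libraries. The 16.7, in WT 2, was between Mcm7, whose row is uncertain, and Mcm5 on an estimated 12 reads. In WT 3 the ratio was 7.71, again between Mcm7 and Mcm5, which there stood on an estimated 8 reads. Summed over the 6 subunits, the level was 5.20, 5.85, 4.06 and 9.29 FPKM in WT 1 to WT 4 and 21.2, 7.61, 11.3 and 8.76 FPKM in KO libraries 1 to 4. KO 1 and KO 3 exceeded every WT library, whereas KO 2 and KO 4 lay below WT 4. The median difference of the 6 subunits, 0.56, was above that of all 16 replication genes.

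Loading and firing factors outside the ring did not share one pattern. Mcm10, which binds the helicase at firing, had the highest mean level of this group, at 8.47, 6.48, 5.23 and 7.94 FPKM in WT and at 1.32, 6.001, 9.03 and 8.52 FPKM in KO. KO 1, the library with the highest levels of 5 of the 6 ring subunits, thus had the lowest Mcm10 level, and the other 3 KO libraries lay at 6.001 FPKM or above. The log2 change of Mcm10 was -0.34 ± 0.46 (SE; adjusted p = 0.816, limma) and became 0.141 without KO 1. The Mcm10 level was also above that of every ring subunit in 7 of the 8 libraries, the exception being KO 1. The cause of the high Mcm10 level was not tested, and the annotation places no other gene over its exons.

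Cdc6, the loader that recruits the ring, had the lowest level of the group, at 0.0135, 0, 0 and 0.0437 FPKM in WT and at 0.276, 0.0118, 0.169 and 0.0123 FPKM in KO. Only KO 1 and KO 3 stood above the WT range. Its partner Cdt1 was at 0.718 to 1.45 FPKM in WT against 0.467 to 2.22 FPKM in KO, with a log2 change of -0.06. Gins1, a subunit of the GINS complex on chromosome 2 (150905400 to 150931280), was at 0.0472, 0.166, 0.201 and 0.236 FPKM in WT and at 0.264, 0.238, 0.271 and 0.267 FPKM in KO. The groups did not overlap, but the gap between WT 4 and KO 2 was small, and the log2 change of 0.12 ± 0.05 (SE) had an adjusted p of 0.559 by limma. Gins1 stood on an estimated 1 to 6 reads a library, and its change came to 0.07 without WT 1. Gins2, another subunit of the same complex, went the other way, at 1.07 to 1.81 FPKM in WT against 0.740 to 1.36 FPKM in KO (log2 change -0.27 ± 0.16 SE, adjusted p = 0.677, limma). The Gins2 row is uncertain, since 67.3% of its exon bases are shared with Gse1 on the opposite strand.

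**Figure D4:**
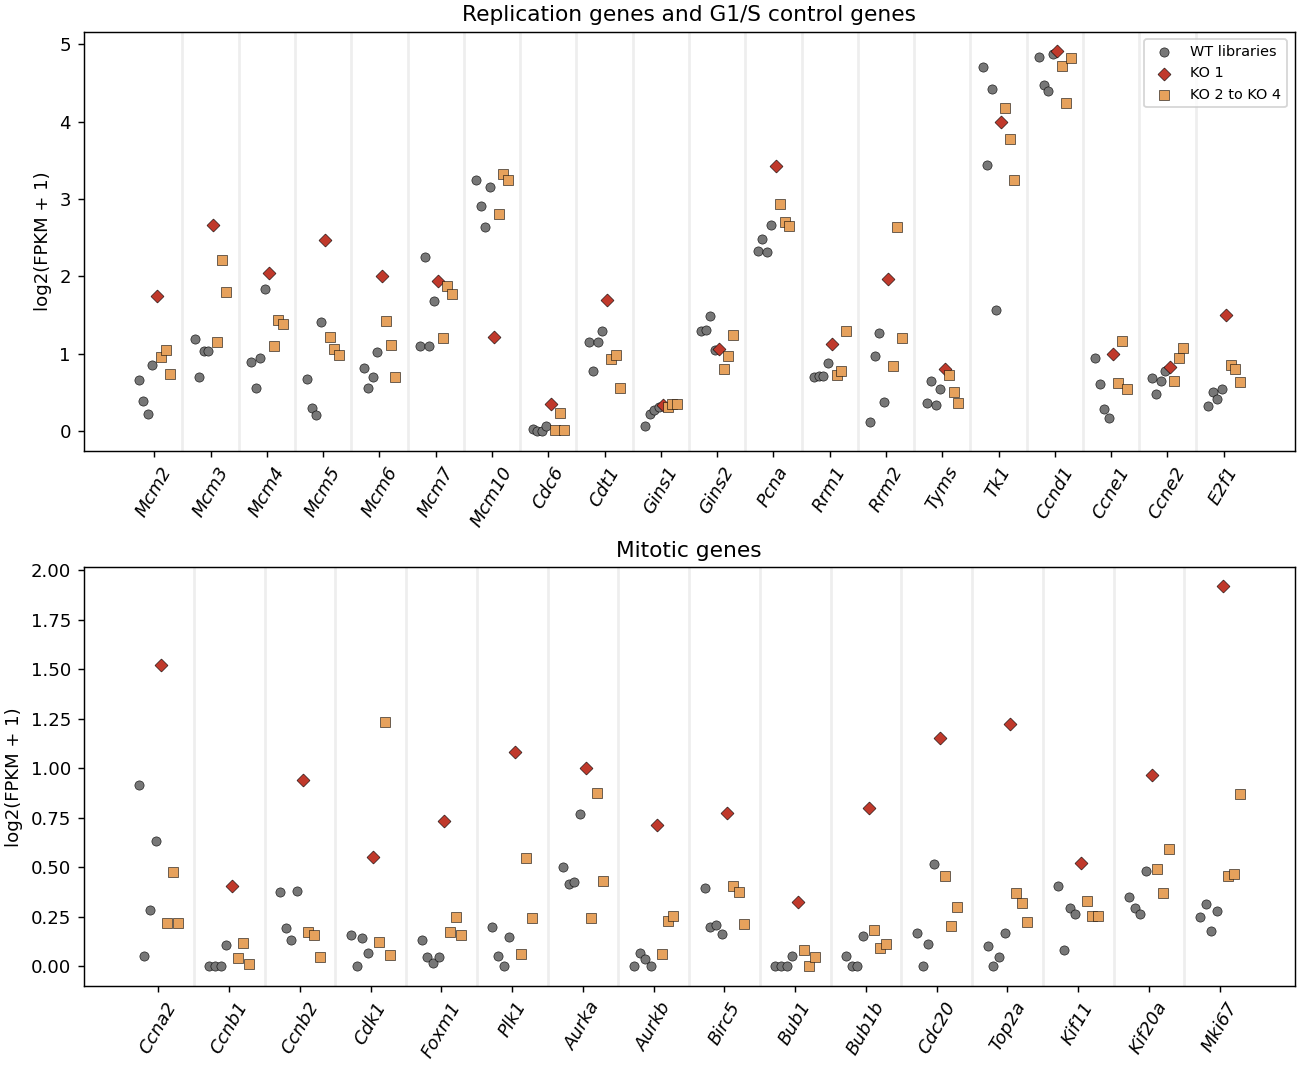
Level of each of the 36 genes in each library, as log2(FPKM + 1), with WT libraries as grey circles, KO 1 as red diamonds and KO 2 to KO 4 as orange squares. The upper panel shows replication and G1/S control genes and the lower panel mitotic genes, on a smaller scale, where KO 1 is the highest point for every gene except Cdk1.

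Among the clamp and the enzymes of nucleotide supply, Pcna came closest to a separation of the groups. It was at 4.01, 4.58, 3.97 and 5.32 FPKM in WT and at 9.71, 6.68, 5.51 and 5.27 FPKM in KO, so that KO 4 alone lay within the WT range, just under WT 4. The WT mean was 4.47 ± 0.630 FPKM and the KO mean 6.79 ± 2.04 FPKM (SD, n = 4), a ratio of 1.52. The log2 change was 0.48 ± 0.19 (SE; adjusted p = 0.467, limma), and the gene lies at chromosome 2, 132249162 to 132253314.

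Rrm2, the regulated subunit of ribonucleotide reductase, was at 0.0856, 0.957, 1.41 and 0.291 FPKM in WT and at 2.90, 0.792, 5.23 and 1.29 FPKM in KO. KO 3 rather than KO 1 was highest, KO 2 and KO 4 lay within the WT range, and the ratio of means was 3.73 (adjusted p = 0.552, limma). That ratio came to 2.42 without KO 3 and to 5.74 without WT 3. Its stable partner Rrm1 was at 0.616 to 0.835 FPKM in WT against 0.650 to 1.44 FPKM in KO. Thymidylate synthase, Tyms, had the lowest mean of this group and was at 0.280, 0.565, 0.265 and 0.457 FPKM in WT and at 0.739, 0.657, 0.413 and 0.279 FPKM in KO. Thymidine kinase, Tk1, had the highest, at 25.03, 9.88, 20.4 and 1.96 FPKM in WT and at 14.96, 17.1, 12.8 and 8.48 FPKM in KO. The WT libraries of Tk1 thus enclosed every KO library, and its difference turned from 0.27 to -0.39 on the log2 scale without WT 4. Its mean FPKM was lower in KO even with all libraries (13.3 against 14.3 FPKM in WT, a ratio of 0.93). Tk1 thus counts as positive only on the log2 scale. The Tk1 exons overlap Afmid on the opposite strand over 1.6% of their bases, and Afmid was at a mean of 27.1 FPKM in WT and 23.3 FPKM in KO.

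At the G1/S boundary, cyclin D1 (Ccnd1) was the most abundant of all 36 genes and hardly differed between the groups, at 27.5, 21.2, 20.1 and 28.4 FPKM in WT and at 29.1, 25.4, 17.97 and 27.3 FPKM in KO. Its log2 change was 0.03 ± 0.18 (SE; adjusted p = 0.972, limma), and the sign turned when libraries were scaled to equal sums (-0.08). E2f1, the factor that switches on replication genes, was at 0.254, 0.422, 0.327 and 0.454 FPKM in WT and at 1.83, 0.802, 0.739 and 0.547 FPKM in KO. Every KO library lay above every WT library. The WT mean was 0.364 ± 0.0913 FPKM and the KO mean 0.979 ± 0.576 FPKM (SD, n = 4), and the log2 change was 0.50 ± 0.20 (SE; adjusted p = 0.466, limma). The ratio of E2f1 means was 2.69 and came to 1.91 without KO 1. The E-type cyclins, partners of Cdk2 at the start of S phase, overlapped between groups. Ccne1, the lowest of the 4 genes, was at 0.918, 0.527, 0.216 and 0.118 FPKM in WT and at 0.993, 0.542, 1.25 and 0.452 FPKM in KO. KO 1 and KO 3 lay above the WT range and KO 2 and KO 4 within it. Ccne2 was at 0.395 to 0.716 FPKM in WT against 0.567 to 1.11 FPKM in KO. Ccnd1 and Ccne2 share 23.4% and 17.4% of their exon bases with LTO1 and Ints8 on the opposite strand.

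The mitotic genes were far lower than the replication genes: none had a mean of at least 1 FPKM over the 8 libraries, against 11 of 16 replication genes. Their summed level was 3.28, 1.30, 1.62 and 3.44 FPKM in WT 1 to WT 4 and 15.4, 3.01, 5.22 and 3.27 FPKM in KO libraries 1 to 4. KO 1 held 57.3% of the KO sum, KO 3 also exceeded every WT library, and KO 2 and KO 4 lay within the WT range. Among the 64 WT values 14 were at 0. The smallest adjusted p of a mitotic gene was 0.537 (Aurkb, limma), and the lowest under any setting was 0.27 for Top2a without KO 1, where its values ran up to 0.720.

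Of the genes of mitotic entry, Foxm1, the transcription factor of the G2/M program, separated the groups. It was at 0.0939, 0.0323, 0.0123 and 0.0309 FPKM in WT and at 0.660, 0.125, 0.189 and 0.114 FPKM in KO. Every KO library lay above every WT library, at levels that correspond to few reads. The means were 0.0423 ± 0.0355 and 0.272 ± 0.261 FPKM (SD, n = 4) and the log2 change was 0.27 ± 0.13 (SE; adjusted p = 0.571, limma). The ratio of means, 6.42, came to 3.37 without KO 1 and 10.8 without WT 1. Foxm1 lies at chromosome 6, 128362967 to 128376146.

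Cyclin A2 (Ccna2), which acts in S phase and at mitotic entry, had the highest mean of the entry genes, at 0.884, 0.0369, 0.216 and 0.547 FPKM in WT and at 1.88, 0.161, 0.389 and 0.164 FPKM in KO. KO 2 to KO 4 lay within the WT range, and without KO 1 the log2 change turned from 0.14 to -0.17. The Ccna2 row is uncertain, since 12.5% of its exon bases are shared with Exosc9 on the opposite strand, which was at 0.465, 0.984, 0.933 and 2.86 FPKM in WT and at 3.52, 1.02, 0.624 and 0.814 FPKM in KO, also highest in KO 1. The B-type cyclins activate Cdk1 at mitosis. Ccnb1, the lowest of the entry genes, was at 0, 0, 0 and 0.0768 FPKM in WT and at 0.324, 0.0303, 0.0857 and 0.00812 FPKM in KO. Ccnb2 was at 0.0958 to 0.299 FPKM in WT against 0.0333 to 0.922 FPKM in KO, and its change also turned negative without KO 1, from 0.06 to -0.14. Cdk1, the kinase itself, was the mitotic gene in which KO 1 was not highest, at 0.113, 0, 0.104 and 0.0453 FPKM in WT and at 0.463, 0.0881, 1.35 and 0.0389 FPKM in KO.

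The mitotic kinases and their partners showed the same excess of KO 1. Aurkb, the kinase of the chromosomal passenger complex, was at 0, 0.0484, 0.0247 and 0 FPKM in WT and at 0.638, 0.0427, 0.169 and 0.192 FPKM in KO, with KO 2 inside the WT range. Birc5, which encodes the survivin subunit of that complex, was at 0.118 to 0.314 FPKM in WT against 0.158 to 0.708 FPKM in KO. Plk1, a kinase of centrosome maturation and mitotic entry, was at 0 to 0.145 FPKM in WT against 0.0446 to 1.11 FPKM in KO. Aurka, the kinase of spindle poles, was at 0.335 to 0.706 FPKM in WT against 0.183 to 1.002 FPKM in KO, and its log2 change of 0.11 came to -0.0131 without KO 1.

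The spindle checkpoint genes were near the detection limit. Cdc20, the activator of the anaphase-promoting complex that the checkpoint restrains, was the highest of them, at 0.123, 0, 0.0790 and 0.430 FPKM in WT and at 1.22, 0.369, 0.152 and 0.232 FPKM in KO. WT 4 exceeded 3 of the 4 KO libraries. The checkpoint kinase Bub1 was the lowest, at 0, 0, 0 and 0.0369 FPKM in WT and at 0.250, 0.0576, 0 and 0.0310 FPKM in KO. Bub1b, which encodes the checkpoint protein BubR1, was at 0 to 0.113 FPKM in WT against 0.0670 to 0.740 FPKM in KO.

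Mki67 and Top2a separated the groups, as Foxm1 did. Their promoters were printed because the results turn on Mki67 and Top2a, so this separation says nothing of the motifs. The groups overlapped for the other mitotic genes with a CHR match, Ccnb2, Cdc20, Bub1, Bub1b, Plk1, Aurka, Kif11 and Cdk1. Mki67 was at 0.188, 0.242, 0.130 and 0.214 FPKM in WT and at 2.78, 0.373, 0.382 and 0.826 FPKM in KO. Every KO library lay above every WT library, and KO 4 was the next highest after KO 1. The means were 0.193 ± 0.0480 and 1.09 ± 1.15 FPKM (SD, n = 4), and the log2 change was 0.67 ± 0.32 (SE; adjusted p = 0.572, limma). The ratio of means was 5.64, and 2.72 without KO 1. Top2a was at 0.0717, 0, 0.0305 and 0.123 FPKM in WT and at 1.33, 0.290, 0.247 and 0.169 FPKM in KO. Every KO library again lay above every WT library, with KO 4 nearest to WT 4. The log2 change was 0.46 ± 0.21 (SE; adjusted p = 0.565, limma), and the ratio of means, 9.05, came to 4.18 without KO 1 and 14.95 without WT 4. Mki67 lies at chromosome 7, 135689784 to 135716361, and Top2a at chromosome 11, 98992943 to 99024189.

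The mitotic motors overlapped between the groups. Kif11, the motor that pushes spindle poles apart, had the lowest mean of the chromosome and motor genes, at 0.323, 0.0591, 0.227 and 0.201 FPKM in WT and at 0.433, 0.257, 0.192 and 0.193 FPKM in KO. WT 1 exceeded 3 of the KO libraries. Kif20a, a motor of cytokinesis, was at 0.198 to 0.396 FPKM in WT against 0.290 to 0.953 FPKM in KO. Its exons share 29.3% of their bases with Cdc23 on the opposite strand, which was at a mean of 1.11 FPKM in WT and 2.13 FPKM in KO.

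Related genes outside the 36 were read from lists of the same functions. Of 44 other replication genes, 30 had a positive and 14 a negative difference (median 0.107), and 0 passed the test in either direction. Rfc2, a subunit of the loader that puts Pcna on DNA, had the smallest p and was lower in KO, at 3.71, 1.99, 2.72 and 1.46 FPKM in WT and at 0.651, 1.25, 0.552 and 0.765 FPKM in KO. The KO libraries of Rfc2 did not reach the WT range, with a log2 change of -0.92 ± 0.23 (SE; adjusted p = 0.242, limma). Pcna and its loader subunit thus differed in opposite directions, neither past the threshold.

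Of 47 other mitosis genes, 44 had a positive and 3 a negative difference (median 0.151), 0 passed the test, and KO 1 was the highest library for 40. Stil, a centriole duplication factor, had the smallest p, at 0.00769, 0.0101, 0.0256 and 0.0533 FPKM in WT and at 0.126, 0.0997, 0.172 and 0.0776 FPKM in KO. Its groups did not overlap (log2 change 0.13 ± 0.03 SE, adjusted p = 0.198, limma), and unlike most mitotic genes its highest library was KO 3. Stil stood on few reads, an estimated 1 to 4 in the WT libraries and 7 to 14 in the KO libraries. Spc24, a kinetochore subunit, was one of the few mitosis genes with a mean above 1 FPKM, at 2.91, 2.19, 0.983 and 1.80 FPKM in WT and at 11.6, 7.07, 3.497 and 3.67 FPKM in KO, without overlap (adjusted p = 0.325, limma).

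Of 26 other G1/S and DREAM regulators (the complex that represses cell cycle genes in quiescence), 17 had a positive and 9 a negative difference (median 0.0731), and 0 passed the test. Rbl1, which encodes the pocket protein p107 and is itself an E2F target, had the smallest p, at 0.0675, 0.162, 0.256 and 0.455 FPKM in WT and at 1.31, 0.508, 0.514 and 0.658 FPKM in KO. Its groups did not overlap (log2 change 0.49 ± 0.17 SE, adjusted p = 0.396, limma). Of 8 CDK inhibitor genes 7 were detected, 3 with a positive and 4 with a negative difference, and 0 passed the test. Cdkn1c, which encodes p57, had the smallest p among them, at 1.01, 4.88, 0.721 and 2.66 FPKM in WT and at 0.459, 0.919, 0.629 and 1.30 FPKM in KO (adjusted p = 0.655, limma). The 8 CDK inhibitors summed to 10.1 to 17.8 FPKM in WT and 7.47 to 11.7 FPKM in KO.

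Summed markers of several other liver cell types were also higher in KO libraries, and their part in these differences was not tested. In bulk tissue, fewer or more cells of a type and less or more RNA per cell cannot be told apart. The 12 macrophage markers summed to 7.25, 9.07, 13.7 and 16.6 FPKM in WT 1 to WT 4 and to 95.8, 23.4, 168 and 135 FPKM in KO libraries 1 to 4, with 12 of 12 positive and 11 of 12 without overlap between the groups. By limma 0 of these 12 passed the threshold, but 11 did without KO 2 and 2 without WT 4 and KO 2. Their sum was highest in KO 3 and KO 4, whereas the mitotic sum was highest in KO 1. Endothelial markers summed to 2.38, 3.89, 6.02 and 5.36 FPKM in WT and to 20, 7.33, 19.1 and 19.2 FPKM in KO (10 of 10 positive, 0 past the threshold and 4 without KO 2). Their highest sum was in KO 1, as for the mitotic genes, with KO 3 and KO 4 close to it. Stellate cell markers summed to 1.99, 2.76, 5.98 and 6.32 FPKM in WT and to 23.7, 13.3, 9.64 and 17.5 FPKM in KO (10 of 10 positive), and KO 1 had the highest sum and was the highest library for 9 of these 10 genes. Cholangiocyte markers summed to 1.65 to 2.18 FPKM in WT and 2.04 to 8.19 FPKM in KO.

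Markers of other blood cells were low in both groups. T and NK cell markers summed to 0.043 to 0.222 FPKM in WT and 0.0616 to 0.500 FPKM in KO, with 5 positive and 3 negative differences. Cd3e, Cd2, Nkg7 and Ncr1 were at 0 in every WT library, and Klrb1c was at 0 in every library. In contrast, Cd4, Cd8a and Trac were detected in WT and had lower means in KO. B and plasma cell markers summed to 0.0778 to 0.664 FPKM in WT and 0.335 to 1.44 FPKM in KO. Neutrophil and granulocyte precursor markers summed to 0.0187 to 0.196 FPKM in WT and 0.0962 to 0.818 FPKM in KO, with Ltf at 0 in every library. Erythroid markers summed to 1.73 to 3.87 FPKM in WT and 3.26 to 4.51 FPKM in KO.

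**Figure D5:**
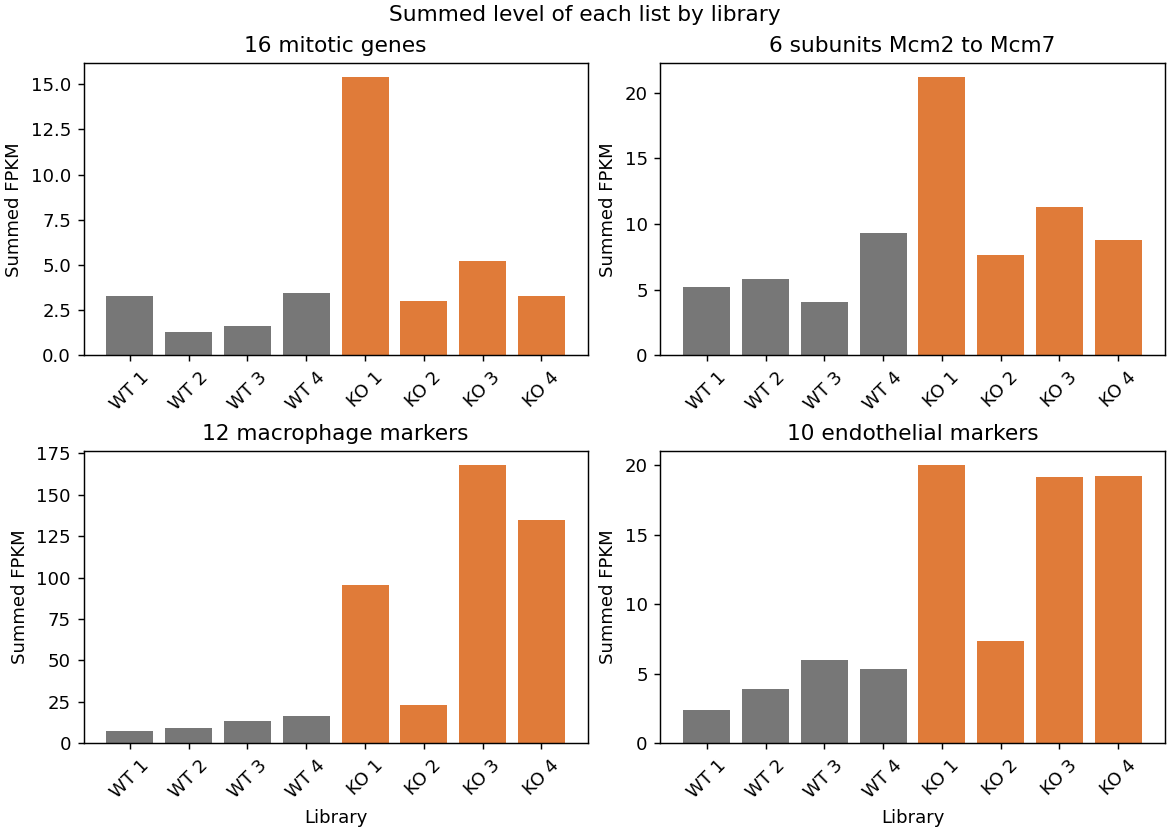
Summed FPKM by library for the 16 mitotic genes, the 6 subunits Mcm2 to Mcm7, 12 macrophage markers and 10 endothelial markers, with WT in grey and KO in orange, each panel on its own scale from 0. The mitotic, ring and endothelial sums peak in KO 1 (15.4, 21.2 and 20), the endothelial sum with KO 3 and KO 4 close behind, and the macrophage sum peaks in KO 3 (168).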

How the data were processed

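RNA of frozen liver from 4 WT and 4 KO samples was sequenced. The authors deposited 1 table of FPKM values for 35638 genes. The submitters' processing notes name TopHat, edgeR and the build mm10 (GRCm38) but no role for them. How FPKM was computed, from which annotation and whether with strand is not given in the sources used here. Columns were assigned to samples by their names, and 99.4% of gene IDs matched GENCODE M21, which gave coordinates.

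Values were taken as log2(FPKM + 1), a scale that understates changes of low genes. All 27571 genes above 0 in at least 1 library were fitted with limma 3.58.1 in R 4.3.3 (a two-sided test of genotype with a trended prior variance, Benjamini-Hochberg over all genes, threshold 0.05), and low FPKM was kept. The script was tested on simulated data, with changes placed only in genes with a mean of at least 1 FPKM. No mitotic gene reached that mean, so the simulation does not show how well changes of such low genes are found. No count-based test was applied. Depth was estimated from the spacing of low values in genes with a single transcript of at least 400 bases, where 50.8 to 55.2% of values lay within 0.1 of a whole read against 20% by chance, so read numbers are approximate.

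Given in every library were Arid1a, genes past the threshold or with separated groups, and the highest and lowest mean in each role group; of each related list, the gene with the smallest p where none passed. Other genes given in every library (Mcm2, Mcm3, Mcm5, Pcna, Rrm2, Cdk1, Aurkb, Spc24 and Exosc9) were chosen after their values were seen. The members and lists were chosen with earlier results of these data known. Marker genes Tf, Cd3d, Igj, Ly6g and Retnlg were not matched by symbol. Alternatives covered pseudocounts of 0.1 and 5 FPKM, filters on the mean, scaling, limma settings, a replicate block and leaving out libraries. Plots used Python 3.11.15 with matplotlib 3.10.9.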

Additional observations from a re-analysis of the deposited data

Results flagged for a closer look

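In 9 of the 72 groups of 4 FPKM values tested, 1 library stood far from the other 3 by Dixon's criterion. The criterion is met in about 1 in 20 groups when values are normally distributed and groups are independent. These groups share the same 8 libraries and FPKM was taken without a logarithm, so the count cannot be weighed against that rate. KO 1 was the library that stood apart, and high, in 6 of the 9 groups. Mcm5 was at 4.54 FPKM in KO 1 and at 0.976 to 1.33 FPKM in the other KO libraries. Ccna2 was at 1.88 FPKM in KO 1 against 0.161 to 0.389 FPKM, and Ccnb2 at 0.922 against 0.0333 to 0.129 FPKM. Foxm1 was at 0.660 FPKM in KO 1 against 0.114 to 0.189 FPKM. Bub1b was at 0.740 FPKM in KO 1 against 0.0670 to 0.134 FPKM, and Top2a at 1.33 against 0.169 to 0.290 FPKM. WT 4 was high in the other 3 groups: Rrm1 was at 0.835 FPKM there and at 0.616 to 0.643 FPKM in the others of its group, and Ccnb1 (0.0768 FPKM) and Bub1 (0.0369 FPKM) were at 0 in those others. With 3 values at 0 any other value meets the criterion, so these 2 groups say nothing of spread, and 7 of the 70 other groups met it. The exons of Ccna2 overlap Exosc9, which was also highest in KO 1 (3.52 FPKM).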

How the results depend on the processing

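The count of genes past the threshold was 0 for replication and for mitotic genes under every setting tried. The median difference of the replication genes was 0.54 with a pseudocount of 0.1 FPKM and 0.435 among the 11 with a mean of at least 1 FPKM, and ran from 0.19 to 0.328 when 1 library was left out. That of the mitotic genes was 0.894 with a pseudocount of 0.1 FPKM and ran from 0.106 to 0.292 when 1 library was left out; no mitotic gene passed the filter of 1 FPKM. Signs turned for Ccnb2 (-0.0403, pseudocount of 0.1 FPKM), Ccnd1 (-0.0782, equal sums), and, with WT 4 and KO 2 left out together, Cdt1 (0.0449) and Tk1 (-0.514). Leaving out 1 library gave ranges that crossed 0 for Aurka (-0.0131 to 0.24), Ccna2 (-0.167 to 0.287), Ccnb2 (-0.143 to 0.156), Ccnd1 (-0.0506 to 0.175), Cdt1 (-0.272 to 0.107), Mcm10 (-0.563 to 0.141) and Tk1 (-0.389 to 0.657). For these the cause was not tested. Counts of genes with every KO library above every WT library, recomputed after the data were seen, went from 1 to 6 without WT 4, 4 without KO 4, 2 without WT 1 or KO 2 and 7 without WT 4 and KO 2 (replication), and from 3 to 7 without WT 4, 5 without KO 2 and 9 without both (mitotic). For any list of genes such a count can only stay or rise when a library is left out. The share of all genes with such a separation in these settings is not given here, so these rises say nothing of the listed genes in particular. With the replicate number as a block the medians were 0.248 and 0.251, 0 of the 36 genes passed and the genes called over the whole table went from 32 higher and 26 lower to 0. Same-numbered samples correlated at 0.0889, -0.0499, 0.0194 and 0.245, and WT 1, WT 3 and WT 4 correlated best with their own number and WT 2 with KO 1. With 1 of the 4 correlations above 0.1, the numbers were not taken as pairs. Over the whole table the calls went from 32 higher and 26 lower to 240 and 33 without KO 2, to 45 and 38 with a pseudocount of 0.1 FPKM, to 15 and 7 with 5 FPKM, to 46 and 40 with the filter of 1 FPKM, to 19 and 16 with equal sums, and to 4 to 23 higher and 4 to 8 lower without any other single library.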
